A study of Mus musculus with 11 samples.

Results

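The proteasome genes were the entries of the count files whose symbol is Psma, Psmb, Psmc, Psmd, Psme, Psmf or Psmg followed by a number, with or without a further letter. They numbered 49 of the 23282 entries in each file. The libraries came from macrophages of the mouse colon, sorted according to the labels as CD45 and CD11b positive, Ly6G and Ly6C negative, and MHCII and CD64 positive. Wild-type (WT) mice were compared with mice of the strain Csf1r-EP4-/-, called KO here, in a course of dextran sodium sulfate (DSS) colitis. EP4 is the prostaglandin E2 receptor encoded by Ptger4, and DSS is a polymer that injures the colon lining. Per the labels, mice drank 2.5% DSS for 5 days, and libraries were titled DSS day 0 or day 39. The groups were KO at day 0 (3 libraries), WT at day 0 (2 libraries), KO at day 39 (3 libraries) and WT at day 39 (3 libraries). The same DSS protocol is attached to the day 0 libraries, so whether those mice had drunk DSS is not stated. The column headers inside the day 39 files read day 35, and that of WT day 0 replicate 2 reads WT3. Age, sex, how the deletion was driven and whether mice were pooled are not given in the sources used here.

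The proteasome is the protease that degrades ubiquitin-tagged proteins in the cytosol and nucleus. Its 20S core is a barrel of alpha rings (Psma genes) around beta rings (Psmb genes), and the catalytic sites sit on the products of Psmb5, Psmb6 and Psmb7. In immune cells and under interferon-gamma, Psmb8, Psmb9 and Psmb10 replace them to form the immunoproteasome, which cuts peptides suited to MHC class I. The 19S cap (Psmc ATPases and Psmd non-ATPases) recognises, deubiquitinates and unfolds substrates. Psme1 and Psme2 form the interferon-inducible PA28 activator, Psme3 the nuclear PA28 gamma and Psme4 the PA200 activator. Psmf1 encodes the inhibitor PI31, and the Psmg genes with Psmd5, Psmd9 and Psmd10 encode assembly chaperones. Macrophages are professional antigen-presenting cells in which immunoproteasome subunits are known to be expressed.

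Libraries were made with a 3′ tag kit (Lexogen QuantSeq), which reads near the end of each transcript, so counts were not divided by gene length. Totals ran from 4003299 to 14207919 counts. Ptger4, the targeted gene, had 1350, 0 and 890 counts in the libraries labelled KO at day 0 and 1, 8 and 4501 in those labelled KO at day 39. It had 0 and 0 in WT at day 0 and 1481, 152 and 7286 in WT at day 39. Thus 3 libraries labelled KO held at least 100 Ptger4 counts. The labels do not say which exons were removed and a 3′ tag can lie outside them, so Ptger4 does not check the genotype, and every genotype comparison rests on the labels. Nothing says that replicates came from separate mice, so p-values measure only the spread between these libraries, which may be technical.

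The main feature of the proteasome genes in these libraries was how unevenly they were counted between replicates. Of the 49 genes, 47 had a count in some library, 42 reached 100 counts in some library and 36 reached 1000. Of all 23282 entries, 9557 reached 100 and 6651 reached 1000. Psma8, the testis-specific alpha subunit, and Psmg2 had 0 counts in all 11 libraries, against a floor of 3 counts, which corresponds to 0.196 to 0.911 CPM in a library. CPM are counts per 1000000 counts of the library after scaling. A count in all 11 libraries was found for 6 of the 49, namely Psma3, Psmb8, Psmb11, Psmd1, Psmd4 and Psme1, and for 815 of the 23282 entries. None of the 49 had at least 10 counts in all 11, beside 355 of all entries, and Psmb8 came nearest with a lowest count of 6, then Psme1 with 4. Among the 36 genes that reached 1000 counts, 51.5% of the values were 10 or fewer, beside 61.3% for all 6651 entries that reached 1000. None of those 36 reached 1000 in a single library with 10 or fewer in the other 10, whereas 1115 of the 6651 entries (16.8%) did. Psmd1, a large scaffold subunit of the cap, was among the genes counted in all libraries. It had 17, 1091 and 1833 counts in KO at day 0, 587 and 1767 in WT at day 0, 3361, 3110 and 401 in KO at day 39, and 75, 828 and 2 in WT at day 39. Its counts varied widely within groups. The median biological coefficient of variation fitted by edgeR was 2.55 over the 43 tested proteasome genes, beside 2.78 over all 6987 tested genes. It was lowest for Psme1 (1.88) and Psmb10 (1.94). The median Spearman correlation of CPM over the 11 libraries was 0.06 for the 903 pairs of tested proteasome genes and 0.03 for pairs of all tested genes. The pairs share libraries and depth, and in counts as sparse as these a weak correlation carries no finding.

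**Figure D1:**
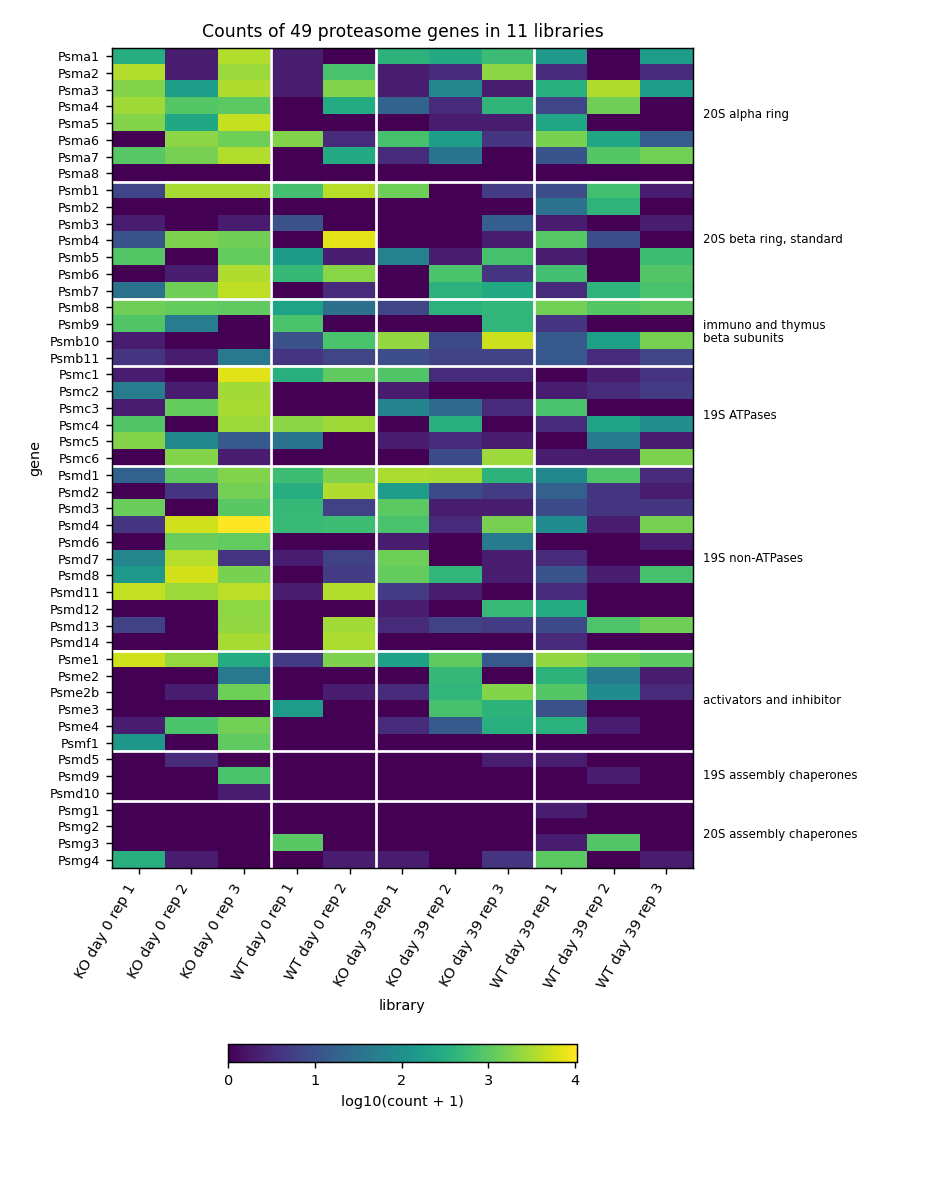
Counts of the 49 proteasome genes (rows, grouped by role) in the 11 libraries (columns, grouped by genotype label and day), coloured by log10 of count plus 1. Filled cells are scattered within every group, Psma8 and Psmg2 are empty throughout, and 6 rows have a count in every library.

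Summed over all 49 genes, the family took 0.180% to 0.743% of the counts of a library. The summed level was 4694, 4958 and 5553 CPM in KO at day 0, 1729 and 8979 in WT at day 0, 3571, 1734 and 5188 in KO at day 39, and 3578, 2380 and 2876 in WT at day 39. The means were 5183 CPM ± 2587 (SD, n = 5) at day 0 and 3221 CPM ± 1196 (SD, n = 6) at day 39, a ratio of 0.622, which was 0.233 with upper-quartile scaling. The days overlapped, and the WT libraries of day 0 held both the lowest and the highest sum. The number of proteasome genes with at least 100 counts was 17, 19 and 32 in KO at day 0, 14 and 17 in WT at day 0, 12, 12 and 15 in KO at day 39, and 14, 14 and 13 in WT at day 39. The library with 32 was also the deepest, and thinned to the smallest library total it had 31. The lowest of the 32 were Psme1 at 301 counts and Psmd9 at 758 in that library. Thinning could thus hardly lower the number, and it does not show whether depth had a part. Of all tested genes, 52.3% reached 100 counts in that library, against 24.9% to 34.4% in the other 4 libraries of day 0. Of the tested proteasome genes, 45.6% ± 15.4 (SD, n = 5) reached 100 counts at day 0 and 31.0% ± 2.82 (SD, n = 6) at day 39. The same shares over all tested genes were 35.5% and 36.8%. No test was made of these sums and shares.

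**Figure D2:**
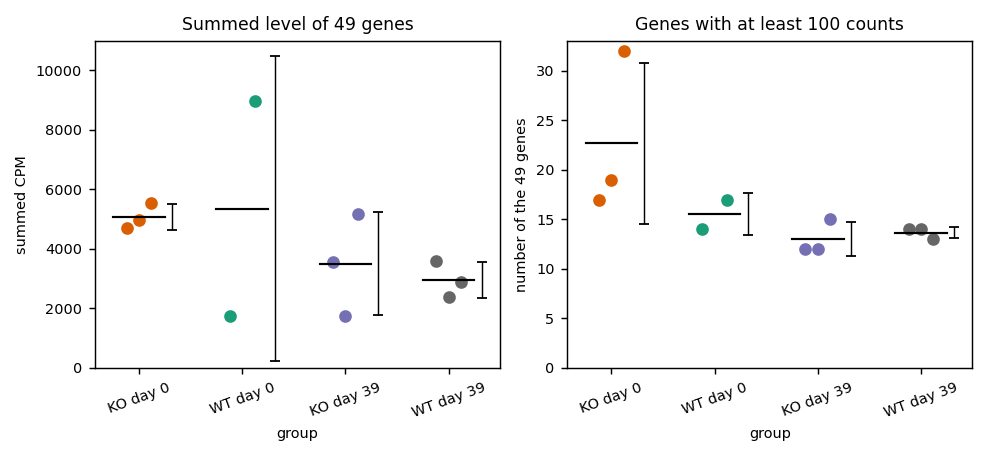
Level of the proteasome genes in each of the 11 libraries: their summed CPM and the number with at least 100 counts, with libraries grouped by genotype label and day. Points are libraries, lines are group means and bars the mean ± SD. The day 39 libraries lie between 12 and 15 genes, KO day 0 replicate 3 stands at 32, and the 2 WT libraries of day 0 sit at 1729 and 8979 CPM.

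Of the 3 immunoproteasome genes and the 3 standard genes they replace, Psmb8 alone had a count in all 11 libraries. Psmb8, encoding the chymotrypsin-like immunoproteasome subunit LMP7, had 1411, 1173 and 1111 counts in KO at day 0, 214 and 30 in WT at day 0, 6, 388 and 454 in KO at day 39, and 1470, 908 and 1025 in WT at day 39. The KO libraries were above the WT libraries at day 0 and below them at day 39, with no overlap in CPM on either day. Mean levels were 150 CPM ± 77.0 (SD, n = 3) in KO and 22.7 CPM ± 22.0 (SD, n = 2) in WT at day 0, a ratio of 6.63. At day 39 they were 69.7 CPM ± 64.9 (SD, n = 3) in KO and 279 CPM ± 147 (SD, n = 3) in WT, 4.01 times higher in WT. In WT the 3 libraries of day 39 also stood above the 2 of day 0, 12.3 times higher in the mean. The libraries labelled KO with under 100 Ptger4 counts had 1173 Psmb8 counts at day 0 and 6 and 388 at day 39. Without overlap, any subset of the KO libraries must lie on the same side of WT, so this is no separate check. None of the Psmb8 differences passed the test across all genes. The edgeR adjusted p-values of Psmb8 were 0.826 at day 0, 0.963 at day 39 and 0.682 for time in WT, and 0.726 for the change of the genotype difference between the days.

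The promoter of Psmb8 is shown because immunoproteasome genes are classical interferon targets, together with those of Psme1, the other interferon-inducible gene counted in all libraries, and Psmd11, which had the smallest p-value of the family. Each run holds 250 bases before and 50 after the RefSeq start, written 5′ to 3′ in the sense of the gene. Capitals mark the 1 match in these runs, in Psme1, to the interferon-response site of GAAA, any 2 bases and GAAA, here on the opposite strand and beginning after the start. Psmb8 and Psmd11 hold no match to the 3 motifs reported here.
Psmb8, GRCm38.p6 chr17:34197945-34198244, plus strand: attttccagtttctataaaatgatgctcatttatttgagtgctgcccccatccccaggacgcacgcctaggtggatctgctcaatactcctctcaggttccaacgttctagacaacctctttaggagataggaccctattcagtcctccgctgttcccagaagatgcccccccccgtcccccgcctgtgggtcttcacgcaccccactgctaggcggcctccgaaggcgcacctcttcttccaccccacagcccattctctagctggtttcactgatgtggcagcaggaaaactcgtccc
Psme1, GRCm38.p6 chr14:55578244-55578543, plus strand: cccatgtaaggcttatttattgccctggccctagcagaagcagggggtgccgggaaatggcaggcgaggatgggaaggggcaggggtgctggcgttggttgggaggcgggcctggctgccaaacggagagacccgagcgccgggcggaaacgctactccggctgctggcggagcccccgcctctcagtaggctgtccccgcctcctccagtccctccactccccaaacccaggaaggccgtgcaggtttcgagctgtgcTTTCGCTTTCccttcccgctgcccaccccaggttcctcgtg
Psmd11, GRCm38.p6 chr11:80428365-80428664, plus strand: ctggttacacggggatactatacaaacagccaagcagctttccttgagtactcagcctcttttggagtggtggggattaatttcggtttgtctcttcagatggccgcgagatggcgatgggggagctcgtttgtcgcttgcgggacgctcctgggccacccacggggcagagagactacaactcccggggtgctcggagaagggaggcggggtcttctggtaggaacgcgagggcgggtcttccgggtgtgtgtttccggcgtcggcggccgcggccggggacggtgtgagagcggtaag
The search covered both strands of 32851 RefSeq promoters of mouse, among them 44 promoters of 41 proteasome genes. The interferon-response site was found in 5 of the 44 (11.4%), those of Psmb3, Psmd4, Psmd9, Psme1 and Psmg4, and in 3.44% of all promoters. The antioxidant-response core TGACNNNGC, a site type bound by the proteasome regulators Nfe2l1 and Nfe2l2, was found in 6 of the 44 (13.6%) and in 12.4% of all. CCAAT was found in 14 of the 44 (31.8%) and in 37.4% of all. A match is a stretch of letters and not a measured site.

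The other immunoproteasome genes were counted in fewer libraries. Psmb9, encoding LMP2, had 861, 50 and 0 counts in KO at day 0, 760 and 0 in WT at day 0, 0, 0 and 449 in KO at day 39, and 3, 0 and 0 in WT at day 39. Psmb10, encoding MECL-1, had 1, 0 and 0 counts in KO at day 0, 9 and 753 in WT at day 0, 2352, 7 and 5087 in KO at day 39, and 13, 194 and 1595 in WT at day 39. Psmb9 overlapped between all groups compared, while for Psmb10 the KO libraries of day 0 were below the libraries of each other group. The mean level of Psmb10 in KO was 692 CPM ± 736 (SD, n = 3) at day 39 against a single count over the 3 libraries of day 0. The ratio of summed counts scaled by depth was 17585, with a 95% counting interval of 3155 to 694673 that covers counting error only. The fitted difference was 13.30 on the log2 scale ± 4.20 (SE), unadjusted p = 0.00155, and it did not pass (edgeR adjusted p = 0.273). DESeq2 and limma-voom called Psmb10 in this contrast, where they called 16.4% and 2.96% of all tested genes. The fitted level of Psmb10 at day 0 was below WT in KO (log2 fold change -10.35 ± 3.84 SE, edgeR adjusted p = 0.381), and this value was -4.46 without WT day 0 replicate 2. The genotype difference changed by 12.76 ± 4.60 (SE) on the log2 scale between the days (edgeR adjusted p = 0.324), or 6.68 without that library. Psmb11, the cortical thymus subunit, had 1 to 41 counts in a library, 41 of them in KO day 0 replicate 3.

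The 3 standard catalytic genes that the immunoproteasome subunits replace were as scattered. Psmb5 had 918, 0 and 1181 counts in KO at day 0, 154 and 1 in WT at day 0, 58, 1 and 709 in KO at day 39, and 1, 0 and 593 in WT at day 39. Psmb6 had 0, 1 and 3484, then 499 and 2040, then 0, 768 and 3, then 665, 0 and 866 in the same order. Psmb7 had 32, 1391 and 4256, then 0 and 2, then 0, 382 and 275, then 2, 413 and 736. For Psmb7 both WT libraries of day 0 were below every KO library of day 0 and, by as little as 2 counts against 2 in a smaller library, below the WT libraries of day 39, while Psmb5 and Psmb6 overlapped throughout. The edgeR adjusted p-values of Psmb7 were 0.404 for KO against WT at day 0 and 0.448 for time in WT. Psmb5 overlaps Mir686 and Psmb7 overlaps Gm13586 in RefSeq, so their counts are uncertain. Of the counts of the 6 genes, the immunoproteasome genes made up 70.5%, 46.8% and 11.1% in KO at day 0, and 60.1% and 27.7% in WT at day 0. At day 39 they made up 97.6%, 25.5% and 85.9% in KO and 69.0%, 72.7% and 54.4% in WT. The share was 43.2% ± 24.1 (SD, n = 5) at day 0 and 67.5% ± 25.3 (SD, n = 6) at day 39, and the days overlapped. Psmb10 gave 2352 of 2358, 7 of 395 and 5087 of 5990 of the immunoproteasome counts in KO at day 39. The 3 immunoproteasome genes did not move together. Mean levels at day 39 against day 0 were 174 against 99.1 CPM for Psmb8, 21.7 against 56.1 for Psmb9 and 411 against 35.8 for Psmb10. The PCR reads behind a share are not independent molecules, and no test was made of it.

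Of the other beta genes, which have no catalytic site, Psmb4 was the one with a small unadjusted p-value in several contrasts. Psmb4 had 10, 1691 and 1420 counts in KO at day 0, 0 and 7051 in WT at day 0, 0, 0 and 1 in KO at day 39, and 931, 8 and 0 in WT at day 39. The KO libraries of day 39 were nearly empty and stood below all KO libraries of day 0. In KO the log2 fold change of day 39 against day 0 was -9.86 ± 4.08 (SE, edgeR adjusted p = 0.273), and at day 39 that of KO against WT was -9.73 ± 4.06 (SE, edgeR adjusted p = 0.491). The latter was -2.84 without WT day 39 replicate 1. Psmb2 had counts in WT at day 39 only, 31, 411 and 0, with 0 in the other 8 libraries (edgeR adjusted p = 0.491 for KO against WT at day 39). Psmb3 had at most 15 counts. Psmb1 reached 3857.

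**Figure D3:**
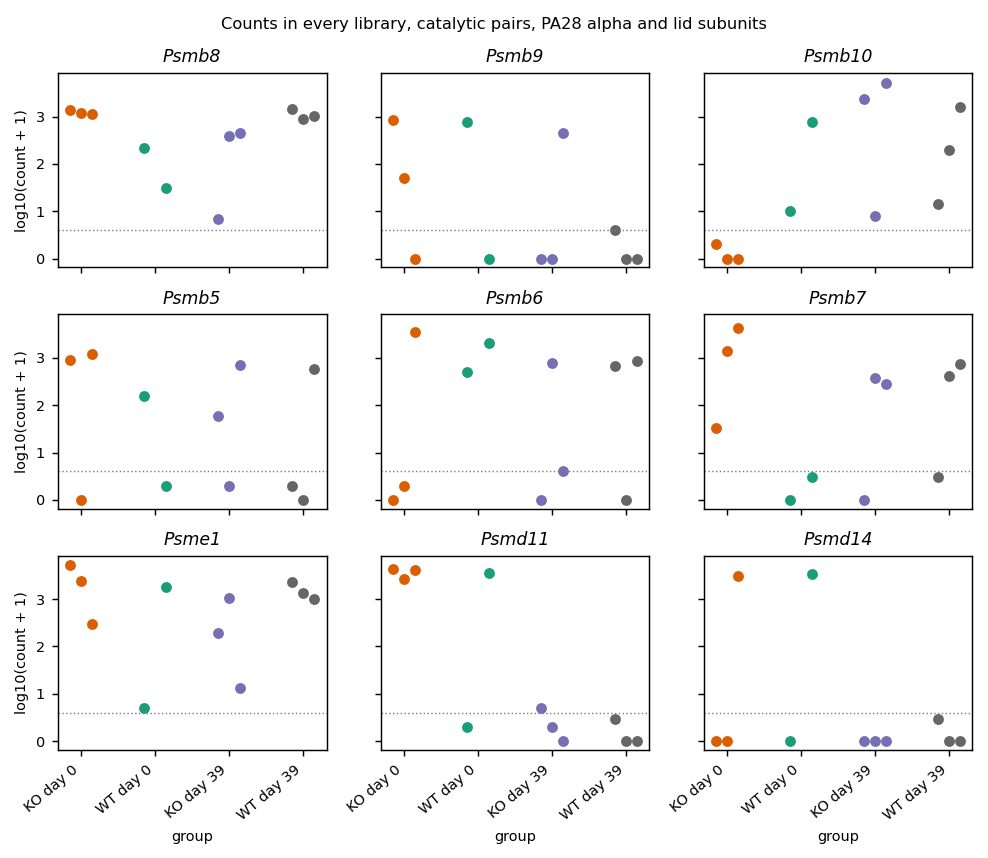
Counts of the 3 immunoproteasome genes, their 3 standard counterparts, Psme1, Psmd11 and Psmd14 in each library, as log10 of count plus 1. Points are libraries in replicate order, colours are the 4 groups and the dotted line marks 3 counts. For Psmb8 the KO points lie above the WT points at day 0 and below them at day 39, and for Psmd11 the points of day 39 lie at 4 counts or fewer.

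Among the alpha genes, Psma5 and Psma2 had the smallest edgeR p-values. Psma5 had 1915, 247 and 4651 counts in KO at day 0, 0 and 0 in WT at day 0, 0, 1 and 1 in KO at day 39, and 238, 0 and 0 in WT at day 39. All KO libraries of day 0 were above the WT libraries of day 0 and above the KO libraries of day 39. The KO libraries of day 0 averaged 215 CPM ± 158 (SD, n = 3), which exceeded by at least 345-fold the level that 3 counts in each WT library would give (edgeR adjusted p = 0.381). The genotype difference of Psma5 changed by -20.35 ± 8.87 (SE) on the log2 scale between the days, a fitted value that rests on groups at or near 0 (edgeR adjusted p = 0.324) and was -10.24 without WT day 39 replicate 1. Psma2 had 3581, 1 and 2635, then 1 and 735, then 1, 2 and 2115, then 2, 0 and 2 counts in the same order of groups. A single KO library thus held the Psma2 counts of day 39, and the log2 fold change of 9.13 ± 4.54 (SE) there (edgeR adjusted p = 0.491) was -0.073 without it. Psma1, Psma3, Psma4, Psma6 and Psma7 reached 2112 to 3658 counts at their highest, each with at least 1 library at 1 count or 0, and Psma3, Psma4 and Psma6 overlap another RefSeq gene.

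In the cap, Psmd11 had the smallest edgeR p-value of the family. Psmd11, encoding the lid subunit Rpn6, had 4404, 2656 and 4098 counts in KO at day 0, 1 and 3617 in WT at day 0, 4, 1 and 0 in KO at day 39, and 2, 0 and 0 in WT at day 39. It was high in 4 of 5 libraries of day 0 and at 4 counts or fewer in all 6 libraries of day 39, and the remaining library of day 0 lay within the range of day 39. The mean level over the libraries was 434 CPM at day 0 and 0.307 CPM at day 39, a ratio of 1416. The size of this ratio is uncertain, because the day 39 level rests on counts near or under the floor of 3. The log2 fold change over both genotypes was -10.48 ± 3.01 (SE), with unadjusted p = 0.000487 and an edgeR adjusted p-value of 0.0794. It passed over both genotypes with DESeq2 (adjusted p = 6.91e-07), with limma-voom (adjusted p = 0.0124) and with upper-quartile scaling in edgeR (adjusted p = 0.0157). These settings called 17.4%, 2.89% and 0.73% of all tested genes in this contrast, beside 0.301% for edgeR with TMM scaling. Leaving out single libraries gave edgeR adjusted p-values of 0.0734 to 0.692, the highest without WT day 0 replicate 2, where the log2 fold change was -4.97. Psmd14, encoding the lid deubiquitinase Rpn11, had 0, 0 and 3142, then 0 and 3340 counts at day 0, and at most 2 counts at day 39. Its difference over both genotypes was -11.25 ± 3.83 (SE) on the log2 scale (edgeR adjusted p = 0.168), and it rested on 2 of the 5 libraries of day 0, being -4.19 without WT day 0 replicate 2. Psmd7, encoding Rpn8, the partner of Rpn11, had 67, 3697 and 3, then 1 and 5, then 1358, 0 and 1, then 2, 0 and 0 counts. Its difference at day 39, 9.09 ± 5.15 (SE) on the log2 scale (edgeR adjusted p = 0.491), was -0.32 without KO day 39 replicate 1. Psmd4, encoding the ubiquitin receptor Rpn10, reached 10484 counts, the highest count of the family, and was as low as 1. Psmd2, Psmd3, Psmd6, Psmd8, Psmd12 and Psmd13 reached 1257 to 5749 counts, and each had 0 counts in at least 1 library. Psmd1 and Psmd13 overlap other RefSeq genes.

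The ATPase genes of the cap each had 1 to 6 libraries with at least 100 counts. Psmc6 had 0, 1907 and 1 counts in KO at day 0, 0 and 0 in WT at day 0, 0, 7 and 2697 in KO at day 39, and 1, 1 and 1717 in WT at day 39. Its log2 fold changes of 11.91 ± 6.09 (SE) for KO against WT at day 0 and 12.53 ± 6.23 (SE) for time in WT rested on 1 library each (edgeR adjusted p = 0.381 and 0.414), being 1.42 without KO day 0 replicate 2 and 3.66 without WT day 39 replicate 3. Psmc3 had 1, 1182 and 3109, then 0 and 0, then 62, 23 and 2, then 724, 0 and 0 counts. The WT libraries of day 0 were empty for both genes. The genotype difference of Psmc3 changed by -15.82 ± 8.09 (SE) on the log2 scale between the days (edgeR adjusted p = 0.348), and by -4.12 without WT day 39 replicate 1. Psmc4 had 851, 0 and 2731, then 2083 and 2778, then 0, 331 and 0, then 2, 206 and 95 counts. Both WT libraries of day 0 exceeded the 3 WT libraries of day 39, by 26.0 times in the mean. In this contrast 17.4% of all tested genes did not overlap. The Psmc4 difference, -4.70 ± 3.89 (SE) on the log2 scale, did not pass (edgeR adjusted p = 0.513). Psmc1, Psmc2 and Psmc5 reached 6857, 2866 and 1861 counts, and Psmc5 overlaps a RefSeq gene.

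Among the activators, Psme1 was counted in every library. Psme1, the alpha subunit of PA28, had 5380, 2411 and 301 counts in KO at day 0, 4 and 1769 in WT at day 0, 196, 1080 and 12 in KO at day 39, and 2344, 1381 and 1017 in WT at day 39. The groups overlapped at day 0. At day 39 the 3 WT libraries, 396 CPM ± 274 (SD, n = 3), were above the KO libraries, 89.2 CPM ± 110 (SD, n = 3), by 4.44 times in the mean, without passing the test (edgeR adjusted p = 0.827). Psme1 overlaps Emc9 in RefSeq. Psme2, the beta subunit, had 0, 0 and 41, then 0 and 0, then 0, 478 and 0, then 396, 46 and 1 counts. Psme2b had 0, 1 and 1338, then 0 and 1, then 2, 448 and 1870, then 911, 87 and 2. Psme2 and Psme2b are near-identical copies and their counts are uncertain, and both were at 1 count or fewer in WT at day 0. Psme3 had counts in 4 libraries, 160 in WT day 0 replicate 1, 702 and 397 in KO at day 39 and 9 in WT at day 39. The KO libraries of day 39 averaged 84.4 CPM ± 74.1 (SD, n = 3), at least 238-fold above the level of 3 counts in each KO library of day 0, all of which had 0 (edgeR adjusted p = 0.273), and 1 KO library of day 39 was also at 0. Its genotype difference changed by 15.91 ± 6.87 (SE) on the log2 scale between the days (edgeR adjusted p = 0.324), and by 6.41 without WT day 0 replicate 1. Psme4 reached 1437 counts. Psmf1 had 131 and 1098 counts in 2 KO libraries of day 0 and 0 in the other 9. Psme4 and Psmf1 overlap other RefSeq genes.

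The assembly chaperones were the least counted. Psmg1, Psmd5 and Psmd10 had at most 2 counts in a library, Psmd9 had 758 counts in KO day 0 replicate 3 and at most 1 elsewhere, and these 4 with Psma8 and Psmg2 were the 6 genes too low to test. Psmg3 had 971 counts in WT day 0 replicate 1, 891 in WT day 39 replicate 2, and at most 1 in the other 9 libraries. The KO libraries held no Psmg3 count on either day (edgeR adjusted p = 0.381 at day 0), and at day 0 the WT counts came from 1 library. Psmg4 reached 1018.

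The edgeR fit with TMM scaling called no proteasome gene in any of the 6 contrasts, whereas the other tools called some. For KO against WT at day 0, 0 of 43 tested proteasome genes passed an edgeR adjusted p of 0.05, beside 0.0143% of all tested genes. At an unadjusted p under 0.05, 0 were higher and 2 lower in KO, Psmb10 and Psmg3, beside 7.99% of all tested genes in either direction (2.05% higher, 5.94% lower). DESeq2 called 9 (17.8% of all genes) and limma-voom called 1, Psma5 (2.55% of all genes). The 9 were Psma1, Psmb7, Psmb10, Psmc2, Psmc3, Psmd6, Psmd8, Psme2 and Psme4, of which Psmb10 was lower in KO. Fitted log2 fold changes were above 0 for 26 genes and below 0 for 16, with a median of 1.52 beside 1.08 over all tested genes. That balance depends on the scaling, being 21 to 21 with a median of 0.00 under upper-quartile scaling, where the median of all genes was also 0.00. It also depends on single libraries. The median was 0.18 without KO day 0 replicate 3 and 9.47 without WT day 0 replicate 2, beside 0.00 and 2.09 over all genes. For 10 genes the groups did not overlap in CPM, beside 12% of all tested genes. In KO 8 of them were higher (6.73% of all genes) and in WT 2, Psmc4 and Psmb10 (5.25% of all genes). The order of CPM can rest on counts at or under the floor, as for Psmc2, with 47, 1 and 2866 counts in KO and 0 and 0 in WT.

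For KO against WT at day 39, edgeR called 0 of 43, beside 0.0286% of all genes. Psma2 was the 1 gene higher at an unadjusted p under 0.05 and Psmb2, Psmb4 and Psmg3 were the 3 lower, beside 7.28% of all genes (2.63% higher, 4.65% lower). DESeq2 called 2, Psma2 and Psmb4 (7.94% of all genes), and limma-voom called 0 (0.487% of all genes). The fitted values divided evenly, 21 above and 21 below 0, with a median of 0.00 as over all genes. Single libraries tipped this balance. It was 25 to 13 with a median of 1.18 without WT day 39 replicate 1, and 14 to 27 with a median of -1.11 without KO day 39 replicate 3. For 6 genes the groups did not overlap, beside 7.4% of all genes (3.41% higher in KO, 3.99% higher in WT). Psma1 was higher in KO, and Psma3, Psmb8, Psmc2, Psmd13 and Psme1 were higher in WT.

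For day 39 against day 0 in WT, edgeR called 0 of 43, beside 0.0143% of all genes, with 1 gene higher (Psmc6) and 2 lower (Psmd11 and Psmd14) at an unadjusted p under 0.05, beside 6.68% of all genes (3.23% higher, 3.45% lower). DESeq2 called 8 (16.9% of all genes) and limma-voom 0 (2.42% of all genes). The median log2 fold change was 0.33 beside 1.64 over all genes, with 24 genes above and 18 below 0. Under upper-quartile scaling it was -1.07 beside 0.48, with 16 above and 26 below. Without WT day 39 replicate 1 it was 0.00 beside 0.03 over all genes, and without WT day 0 replicate 2 it was 2.59 beside 3.37. The groups did not overlap for 10 genes, beside 17.4% of all genes (12.7% higher at day 39, 4.72% higher at day 0). Psmb7, Psmb8, Psmc2, Psmc6, Psme2 and Psme2b were higher at day 39 and Psmb1, Psmc1, Psmc4 and Psmd2 higher at day 0. These counts rest on 2 WT libraries of day 0. Without replicate 2 of them the WT differences of Psmd11 and Psmd14 were 0.16 and 3.40 on the log2 scale.

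For day 39 against day 0 in KO, edgeR called 0 of 43, beside 0.157% of all genes. At an unadjusted p under 0.05, 2 genes were higher (Psmb10 and Psme3) and 4 lower (Psmb4, Psmd11, Psmd14 and Psmf1) at day 39, beside 18.2% of all genes (10.8% higher, 7.39% lower). DESeq2 called 7 (16.4% of all genes) and limma-voom 3, Psma5, Psmb10 and Psmd11 (2.96% of all genes). The fitted values lay above 0 for 10 genes and below 0 for 31, with a median of -1.01 beside 0.00 over all genes. The groups did not overlap for 7 genes, beside 11.3% of all genes (8.07% higher at day 39, 3.21% higher at day 0). Psmb10 was higher at day 39, and Psma3, Psma5, Psma7, Psmb4, Psmc5 and Psmd11 were higher at day 0.

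Over both genotypes, which averages the time contrasts, edgeR called 0 of 43, beside 0.301% of all genes. With the unadjusted p under 0.05, 2 genes were higher (Psmb10 and Psmc6) and 3 lower (Psmb4, Psmd11 and Psmd14) at day 39, beside 19.2% of all genes (13% higher, 6.21% lower). DESeq2 called 7 (17.4% of all genes), limma-voom 1, Psmd11 (2.89% of all genes), and edgeR with upper-quartile scaling 3, Psmb4, Psmd11 and Psmd14 (0.73% of all genes). The median log2 fold change was -0.50 beside 0.76 over all genes, with 18 above and 25 below 0. The scaling moved the median of all genes from 0.76 to 0.18 (upper quartile) and that of the proteasome genes to -1.06. Leaving out single libraries moved the proteasome median between -1.37 (WT day 39 replicate 1) and 0.60 (WT day 0 replicate 2), so its sign rests on single libraries. The medians of all genes in these fits were 0.28 and 1.89. The days overlapped in CPM for every tested proteasome gene, beside 1.76% of all genes that did not. The change of the genotype difference between the days gave 0 calls of 43 with edgeR, beside 0% of all genes, and 2 higher (Psmb10 and Psme3) and 1 lower (Psma5) at an unadjusted p under 0.05, beside 14.4% of all genes (4.59% higher, 9.8% lower). DESeq2 called 7 there (13.4% of all genes) and limma-voom 0 (0.272% of all genes). The contrasts share libraries and are not independent.

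**Figure D4:**
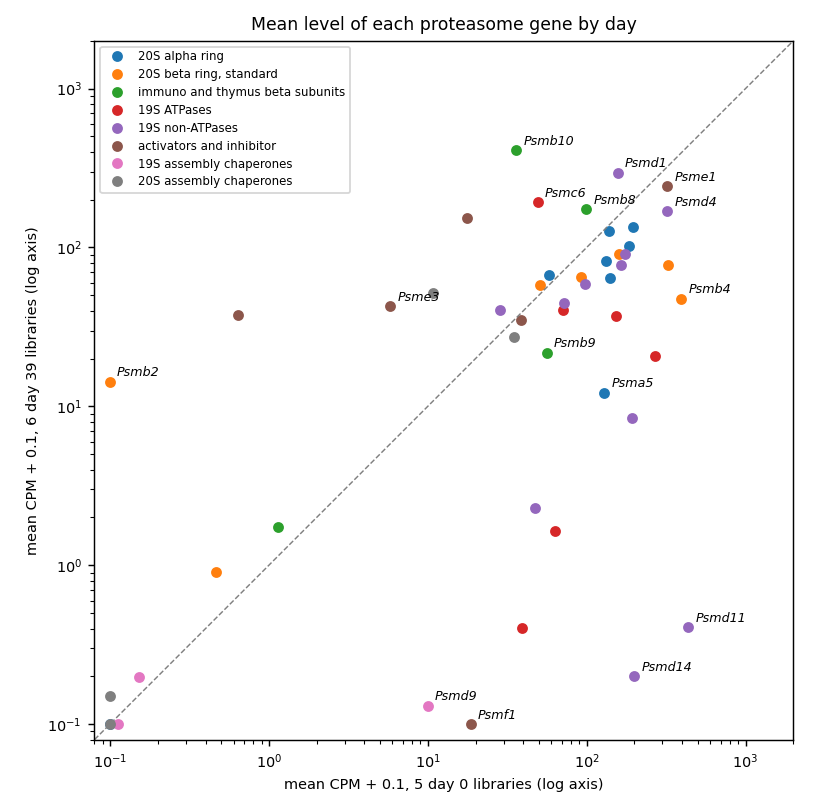
Mean level of each of the 49 proteasome genes over the 5 libraries of day 0 (x axis) and the 6 of day 39 (y axis), in CPM plus 0.1 on log axes, coloured by role. The dashed line marks equal levels. Psmd11 and Psmd14 lie far below it and Psmb10 above it, and none of them passed the threshold in edgeR with TMM scaling.

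The genes around the proteasome were read from lists of known function. Of 29 listed genes for ubiquitin, its conjugation, substrate shuttling, proteasome transcription factors and further proteasome proteins, 23 were tested and 0 passed edgeR in any of the 6 contrasts. Over both genotypes 1 was higher and 1 lower at an unadjusted p under 0.05, with a median log2 fold change of 0.56, beside 13% higher, 6.21% lower and a median of 0.76 over all tested genes. Their summed level was 3095 to 6115 CPM at day 0 and 3829 to 7659 at day 39. Pomp, the chaperone that matures the core, had 3 to 6701 counts, Nfe2l1 had 0 to 5238 and Nfe2l2 had 0 to 3008. Of 14 interferon and antigen-processing genes, 13 were tested and 0 passed edgeR in any contrast, with 1 higher and 0 lower over both genotypes at an unadjusted p under 0.05 and a median log2 fold change of 1.39. Their sum was 6821 to 12052 CPM at day 0 and 6615 to 10497 at day 39. Unlike the proteasome genes, the class I heavy chain H2-K1 and B2m were well counted in all 11 libraries, at 5237 to 20478 and 4268 to 42995 counts.

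Marker lists gave the makeup of the libraries in which the proteasome genes were read. The 14 macrophage and sort markers summed to 12990 to 56085 CPM at day 0 and 19023 to 35425 CPM at day 39, with 10 of 14 counted in all libraries and 0 passing edgeR. Those with 0 counts in some library were Ptprc, Itgam, Fcgr1 and Cd68. Ptprc (CD45), Itgam (CD11b) and Fcgr1 (CD64) encode markers the cells were sorted for. They ran from 0 to 2407, 0 to 3336 and 0 to 2063 counts, so these libraries do not check the sort by these genes. The 20 colon epithelium markers summed to 74.8 to 1943 CPM at day 0 and 2261 to 14412 at day 39, without overlap. Of them, 13 were higher at an unadjusted p under 0.05 over both genotypes, beside 13% of all tested genes, and 0 passed edgeR. The 10 skeletal muscle markers summed to 2742 to 25049 CPM at day 0 and 3010 to 15199 at day 39. Of the muscle markers, 2, Tnnc2 and Pvalb, passed edgeR as lower at day 39 in KO and over both genotypes, and as lower in KO than in WT at day 39, beside 0.157%, 0.301% and 0.0286% of all tested genes called in these contrasts. The stroma markers summed to 3049 to 20712 CPM at day 0 and 5557 to 10938 at day 39, the 9 listed B and T lymphocyte markers to at most 210 CPM with 5 of them at 0 in all libraries, and the 4 listed of the 5 sort-excluded markers to at most 779 CPM. Fewer cells of a type and less RNA per cell cannot be told apart in these bulk libraries. The part of epithelial, muscle or stromal RNA in the proteasome counts was not tested.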

How the data were processed

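Counts per gene were deposited by the authors as 1 file per library, with whole-number, unnormalized values. Bowtie2, edgeR and the human build hg19 are named per the submitters' processing notes, without roles or versions, although the symbols are those of mouse; how reads were counted, and whether by strand, is not given in the sources used here. Library totals ran from 4003299 to 14207919 counts.

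The proteasome genes and the gene lists were chosen with earlier results of these data known. All 11 libraries were fitted with edgeR 4.0.16 (R 4.3.3): filterByExpr, TMM scaling, 1 coefficient per group and robust quasi-likelihood tests, two-sided, with p-values adjusted by Benjamini-Hochberg over 6987 genes and a threshold of 0.05. The filter left out 16295 genes, among them 6 proteasome genes. CPM used TMM-scaled library sizes, and standard errors came from the log2 fold change and its F value. Folds against empty groups used a floor of 3 counts. The genes given with values in every library were the 2 with the smallest p in each direction of each contrast, the immunoproteasome genes Psmb8, Psmb9 and Psmb10 with Psmb5, Psmb6 and Psmb7, Psme1 and Psme2, and any with at least 10 counts in all libraries or an adjusted p under 0.05 (none met these). Psmd1, Psmc4, Psme2b and further genes with single values were chosen after their values were seen. Intervals are 95% and exact, and cover counting error only. DESeq2 1.42.0, limma 3.58.1, other scalings and filters, a replicate block and leaving out libraries were alternatives. Tested on simulated counts, the edgeR code recovered changes at a low spread and none at a spread near that fitted here. The replicate numbers of the titles did not pair the libraries, and those of the headers were not tested. Promoters and overlapping genes came from RefSeq tables for GRCm38.p6 and were matched by symbol, and 1 further motif is not reported here.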

Additional observations from a re-analysis of the deposited data

Results flagged for a closer look

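Among 8 sets of libraries examined for a value far from the others (chance marks about 1 in 20), 2 had one. KO day 0 replicate 3 had 32 proteasome genes with at least 100 counts, standing apart from the other 4 libraries of day 0, which had 14 to 19 (gap over range 0.722, critical value 0.71). Over all tested genes 52.3% reached 100 counts in this library and 24.9% to 34.4% in the other 4. It was the deepest library. When it was thinned to the smallest total 31 genes remained, a number that their high counts nearly fixed in advance. KO day 39 replicate 3 had a summed level of Psmb8, Psmb9 and Psmb10 of 1726 CPM, apart from the other 5 libraries of day 39, where the highest was 610 CPM (gap over range 0.677, critical value 0.625). Psmb10 gave 5087 of its counts.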

How the results depend on the processing

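With edgeR, 0 proteasome genes were called in each of the 6 contrasts, and leaving out single libraries gave 0 to 0 in every one. DESeq2 called 9 (genotype at day 0), 2 (genotype at day 39), 8 (time in WT), 7 (time in KO), 7 (time over both genotypes) and 7 (change between the days). limma-voom called 1 at day 0, 3 for time in KO and 1 over both genotypes, and upper-quartile scaling called 3 over both genotypes. Other scalings, filters and subsets of libraries gave 0. The replicate numbers of the titles gave no pairing. Deviations of libraries with the same number correlated at -0.02 to 0.07, beside -0.07 to 0.04 for different numbers. The fit with a replicate block called 0 proteasome genes in each contrast. Both took WT day 0 replicate 2, headed WT3, as number 2, and pairing by the headers was not tested. The ratio of summed CPM between the days, 0.622, was 0.233 with upper-quartile scaling and 0.533 to 0.761 without single libraries. The median number of genes per library was 14 at 100 counts, 30 at 1 count and 6 at 1000 counts, and 14 to 14.5 without single libraries. Of 416 alternative values of individually named genes, 9 from DESeq2 had no adjusted p. Of the other 407, 380 kept direction and side of the threshold, 20 newly passed, 2 were 0 and 5 turned direction. Psma2 (KO against WT at day 39) was -0.073 to 9.72 without single libraries, the lowest without KO day 39 replicate 3, and -0.052 without the libraries labelled KO with at least 100 Ptger4 counts, an alternative chosen after seeing the data. Psmd7 in that contrast was -0.32 to 12.39, the lowest without KO day 39 replicate 1. Psmd11 and Psmd14 (time in WT) were -14.35 to 0.16 and -14.23 to 3.40, the highest without WT day 0 replicate 2. The cause was not tested. Groups of 2 or 3 libraries with a median coefficient of variation of 2.55 limit what these counts can show.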
